A study of Homo sapiens with 12 samples.

Results

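The actin and actomyosin cytoskeleton genes described here are 55 of the 20117 genes in a deposited RNA-seq table of human THP-1 and EA.hy926 cells given low-density lipoprotein (LDL). They were taken by symbol from a list of actin, myosin, tropomyosin and actin-binding genes. The list was drawn up with earlier results of these data known, although its rule names no measured value. All 55 were found by gene identifier. They were split by role into 8 classes. These are 3 actins, 17 contractile genes, 12 nucleating and elongating genes, 2 capping genes, 7 severing and turnover genes, 5 crosslinking genes, 4 monomer-binding genes and 5 membrane-linking genes.

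Total RNA was sequenced from 4 groups of 3 libraries, each labelled a biological replicate. THP-1, a monocytic leukaemia line matured by the phorbol ester PMA toward macrophages, was kept without serum in RPMI-1640 for 24 h, alone (THP-1 control) or with 100 µg/mL of native LDL isolated from donors with cardiovascular disease (THP-1 LDL). EA.hy926, a hybrid of umbilical vein endothelial cells and the lung carcinoma line A549, was kept without serum in DMEM for the same 24 h, alone (EA.hy926 control) or with LDL at 100 µg/mL (EA.hy926 LDL). Line and medium therefore cannot be told apart, and one label field still calls the THP-1 cells monocytes. The series title puts the study's question as the mechanics of macrophages and endothelial cells under LDL, and the genes below encode the machinery that sets cell shape and force.

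Actin monomers polymerise into polar filaments. Branched networks are started by the Arp2/3 complex, and straight filaments are started or elongated by formins and Ena/VASP proteins. Filaments are ended by capping proteins, cut by cofilins and gelsolin, tied together by alpha-actinins, filamin and fascin, and pulled by non-muscle myosin II, whose access to the filament depends on tropomyosins and calponins. In macrophages these parts drive spreading, podosomes and uptake of particles, and in endothelial cells they carry stress fibres and junctional tension.

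Serum response factor (SRF), with its cofactors of the MRTF family, which monomeric actin holds in the cytoplasm, is known to drive many of these genes through the CArG box. Promoter windows of 300 bases, from 250 before to 50 after the gene start in RefSeq (GRCh38.p14), were at hand for 48 of the 55 genes, and the CArG box was searched in them by script; its pattern reads the same on both strands. It was found in 5 of the 48 windows (10.4%) and in 351 of 27305 promoter windows of the same length (1.29%). Only the strict form of 10 bases was searched, CC, then A or T alone, then GG, and looser forms were not. No window was at hand for ACTB, MYL9, TAGLN, ARPC1B, WASF2, FSCN1 and PFN2. A member not shown may therefore still hold a box. The 5 stretches are shown because these members are followed through the results below, with 50 bases printed on the gene's strand and the CArG box in capitals.
ACTG1: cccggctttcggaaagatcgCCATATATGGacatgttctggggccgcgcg
CNN2: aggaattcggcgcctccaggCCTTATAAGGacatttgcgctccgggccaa
FLNA: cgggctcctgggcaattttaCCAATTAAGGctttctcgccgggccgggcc
MYLK: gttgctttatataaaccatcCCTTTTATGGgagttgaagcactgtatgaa
TPM4: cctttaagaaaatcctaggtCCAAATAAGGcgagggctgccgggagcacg
They lie at chr17:81512864-81512913 on the minus strand (ACTG1), chr19:1026499-1026548 on the plus strand (CNN2), chrX:154374699-154374748 on the minus strand (FLNA), chr3:123620613-123620662 on the minus strand (MYLK) and chr19:16067345-16067394 on the plus strand (TPM4). The box starts 94, 89, 94, 94 and 173 bases before the gene start in that order. The gene start is that of RefSeq. The printed ACTG1, MYLK and TPM4 stretches lie inside the longer spans that GENCODE 29 gives these genes. Those of CNN2 and FLNA lie just outside. The MYLK stretch lies far inside its span (chromosome 3, 123610049 to 123884331, minus strand), nearer the gene's end than its start. Whether that inner start serves the kinase was not tested. A match describes the letters in the window and is no measure of binding.

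The values are normalised counts, gene read counts divided by the authors by one size factor per library. Recovered depth ran from 4.32 M reads (EA.hy926 LDL 2) to 11.0 M (THP-1 control 2). Of 10 macrophage markers, 9 had a mean of at least 10 normalised counts in both THP-1 groups, while CD68 was listed at 0 there; 8 and 9 of the 10 were listed at 0 in EA.hy926 control and LDL. All 9 endothelial markers in the table reached 10 in EA.hy926 control, where they summed to 23317 to 24000.1 normalised counts; in THP-1 control 6 did, with a sum of 3396 to 3766, and TEK, KDR and CDH5 were listed at 0. Of 4 lung epithelial keratins in the table, 3 reached 10 in EA.hy926 and all 4 were listed at 0 in THP-1. Of 5 smooth and striated muscle markers in the table, ACTC1, LMOD1 and DES were listed at 0 in every group and MYH11 in EA.hy926, with the list summing to at most 66.2 normalised counts in a THP-1 library and 7.64 in an EA.hy926 library. All 6 fibroblast markers were listed at 0 in EA.hy926, and their sum was 105 to 129 in THP-1 control and 213 to 255 in THP-1 LDL. The share of counts taken by the small cytoplasmic RNA RN7SL1 was 8.90% to 14.4% in EA.hy926 and 1.74% to 3.08% in THP-1.

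Together the 55 genes took 2.52 ± 0.109% of all normalised counts in EA.hy926 control, 2.68 ± 0.0854% in EA.hy926 LDL, 3.11 ± 0.0639% in THP-1 control and 1.93 ± 0.0363% in THP-1 LDL (SD, n = 3). The THP-1 groups did not overlap (3.05% to 3.18% in control, 1.90% to 1.97% with LDL), whereas the EA.hy926 groups did (2.45% to 2.65% and 2.59% to 2.75%). Each of the 8 classes took a smaller mean share of THP-1 counts with LDL. The 3 actins made up 1.36 ± 0.0573% of THP-1 control counts and 0.764 ± 0.0135% of THP-1 LDL counts. Contractile genes went from 0.414 ± 0.00989% to 0.271 ± 0.0105%. These are shares of deposited totals that were larger in THP-1 LDL (9.09 M to 9.20 M) than in THP-1 control (7.19 M to 7.28 M).

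**Figure D1:**
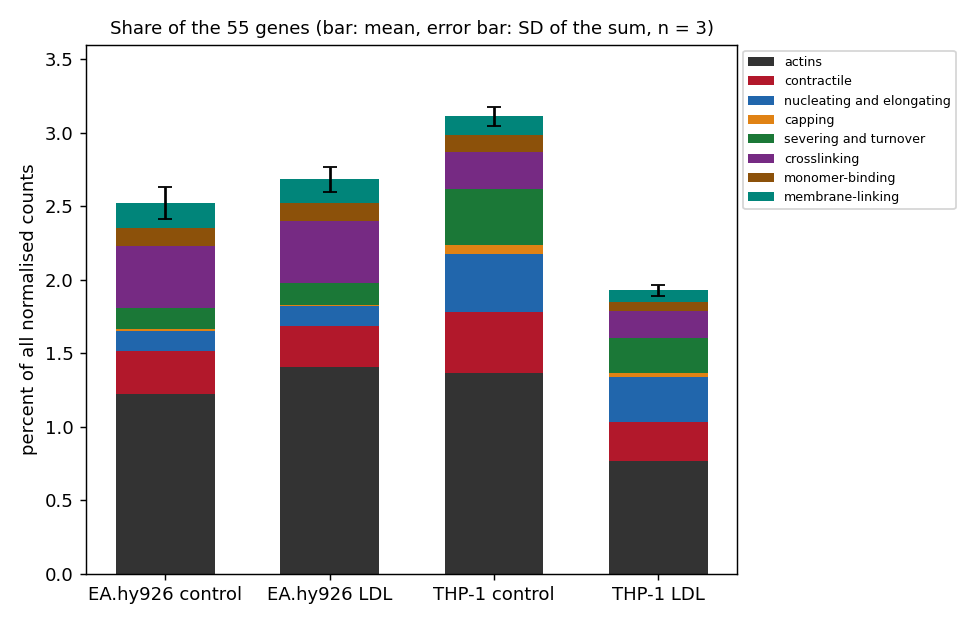
Stacked bars give the mean percent of all normalised counts taken by each of the 8 classes in the 4 groups, and error bars give the SD of the summed share of all 55 genes (n = 3). The bar of THP-1 LDL is the lowest, at 1.93%, against 3.11% in THP-1 control, and the EA.hy926 bars stand at 2.52% and 2.68%.

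Without LDL, the cytoplasmic actins led in both lines but in opposite order. Per kilobase of exon, ACTG1 (gamma-actin) stood at 20773 ± 1245 normalised counts in EA.hy926 control and ACTB (beta-actin) at 10176 ± 987, while in THP-1 control ACTB stood at 20250.1 ± 1081 and ACTG1 at 9105 ± 244 (SD, n = 3). Rank 3 in both was held by TMSB10 (thymosin beta 10, which binds actin monomers), at 3062 ± 256 and 3033 ± 139. The length used is the union of all annotated exons, 496 bases for TMSB10 and 1705 for TMSB4X, so ranks depend on it. By counts alone TMSB4X stood above TMSB10, at 3212 and 1519 in EA.hy926 control and 4593 and 1505 in THP-1 control. FLNA (filamin A, a filament crosslinker) ranked 4 in EA.hy926 control at 2583 ± 163, and rank 5 in THP-1 control was held by LCP1 (L-plastin, the bundling protein of blood cells) at 1908 ± 74.4. After LDL, LCP1 ranked 3 in THP-1, at 2187 ± 148.

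The control lines were compared with limma on log2(value + 1), with Benjamini-Hochberg adjustment over 16948 genes and a threshold of 0.05; differences are THP-1 minus EA.hy926 on that log2 scale. Of the 54 members tested, 32 were higher in THP-1 and 14 lower, in a comparison that called 82% of all genes tested (45.1% higher, 37% lower), and CNN1 (the smooth muscle calponin) was listed at 0 in all 12 libraries. The median difference was 0.55 over the members and 0.18 over all genes tested. Of the 12 nucleating and elongating genes, 11 were higher in THP-1 and none was lower, ENAH being the member not called (0.18 ± 0.198 (SE), adjusted p = 0.41). Both capping genes were higher, by 3.66 for CAPG and 1.95 for CAPZB.

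LCP1, CORO1A, EVL and MYL9 were among the members that counted higher in THP-1 control. LCP1 counted 8.16, 11 and 2.32 in the EA.hy926 control libraries and 10072, 9554 and 9340.2 in THP-1 control, a difference of 10.40 ± 0.393 (SE). CORO1A (coronin 1A, the coronin of blood cells) counted 5.1, 11 and 9.28 in EA.hy926 control and 5149, 5446 and 5729 in THP-1 control, a difference of 9.23 ± 0.482 (SE). EVL, an Ena/VASP elongation factor, counted 72.4, 73.5 and 80 in EA.hy926 control and 1179, 1208 and 1247 in THP-1 control (3.99 ± 0.184 (SE)). For all 3, no THP-1 library overlapped an EA.hy926 library. MYL9, a regulatory myosin light chain, counted 528, 493 and 510.3 in THP-1 control and was listed at 0 in all EA.hy926 libraries.

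In the other direction, FLNA counted 28777, 27816 and 25429 in EA.hy926 control and 201, 217 and 223 in THP-1 control, a difference of -6.99 ± 0.157 (SE). ACTA2, the alpha-actin of smooth muscle, counted 172, 192 and 121 in EA.hy926 control and 11.3, 9.15 and 11.3 in THP-1 control (-3.79 ± 0.26 (SE)). These groups did not overlap. PFN2 (profilin 2, which binds actin monomers) counted 1513, 1679 and 1452 in EA.hy926 control, and CALD1 (caldesmon, a filament-binding inhibitor of myosin) counted 429, 258 and 320.0. Both were listed at 0 in every THP-1 library, so no fold is given. ACTB was higher in THP-1 by 1.00 ± 0.09 (SE) and ACTG1 lower (-1.19 ± 0.071 (SE)). Of the regulatory light chains, MYL12B was lower in THP-1 (-1.82 ± 0.107 (SE)) and MYL12A did not pass the test (0.03 ± 0.081 (SE), adjusted p = 0.712). Reads shared by ACTB and ACTG1, by MYL12A and MYL12B and by processed copies of these genes and of TMSB4X may have been dropped or split by the counting, which the table does not show.

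**Figure D2:**
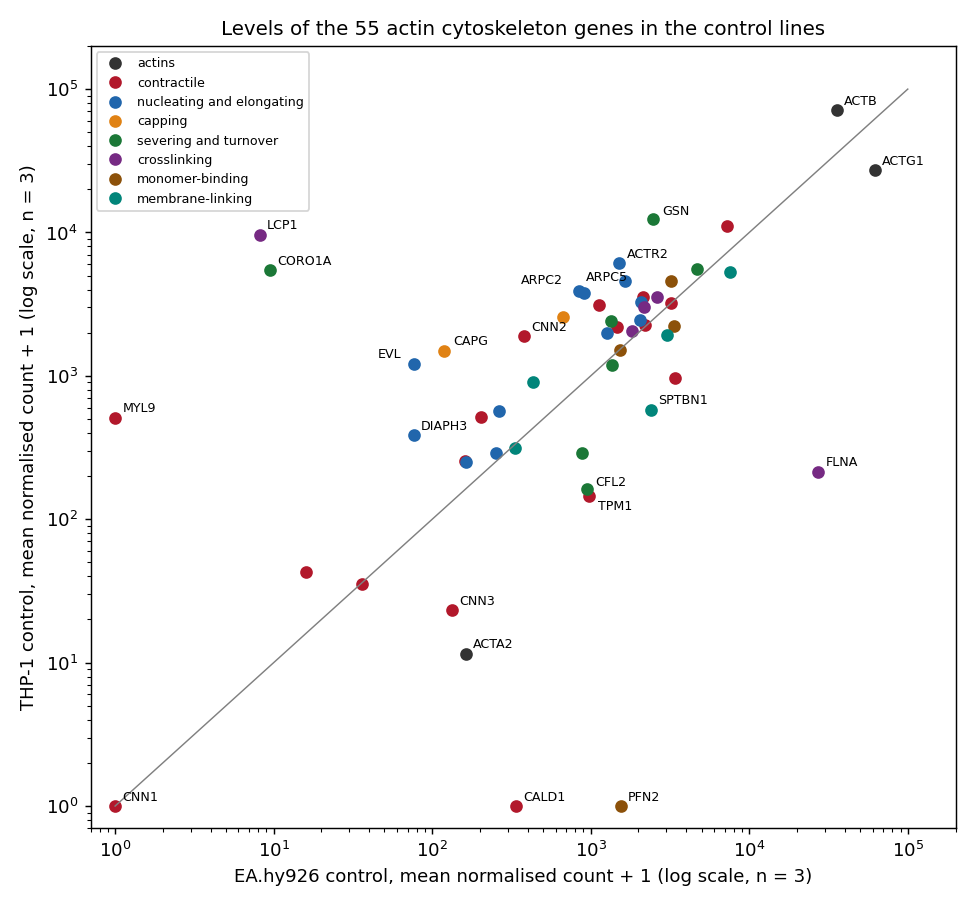
Each point is one of the 55 genes, with its mean normalised count plus 1 in EA.hy926 control (x axis) and THP-1 control (y axis), both on log scales (n = 3), coloured by class; the grey line marks equal levels. LCP1, CORO1A, EVL and MYL9 lie far above the line and FLNA, PFN2, CALD1 and ACTA2 far below it; points at 1 on an axis are listed at 0.

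In THP-1 cells given LDL, most of the listed members counted lower than in control. Of the 52 members tested, 36 fell and 7 rose, where 64.5% of the 16167 genes tested were called (35.5% higher, 29% lower; limma within the line, adjusted p under 0.05). The median change was -0.37 on the log2 scale over the members and 0.08 over all genes tested. The 9 members that did not pass with the authors' size factors were ACTA2, TAGLN, ACTR2, EVL, CAPZB, CFL2, CORO1C, SPTAN1 and SPTBN1. CNN1, CALD1 and PFN2 were not tested. LDL and control libraries did not overlap for 45 of the 52 members, against 68.9% of all genes tested. In bulk RNA, fewer cells of a kind and less RNA per cell cannot be told apart.

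How the libraries are scaled moves these counts. The median over all genes tested was 0.08 with the authors' size factors and -0.08 under quantile normalization. The split of all calls was 5743 higher and 4682 lower with the authors' size factors. It turned to 4636 and 5728 under quantile normalization, 5061 and 5405 with TMM, and 5189 and 5423 by edgeR. With median-of-ratios it was 5261 and 5185, and by DESeq2 4754 and 4567. Relative to the median of all genes, the median of the members stayed lower under every scaling, at -0.44 with the deposited, TMM and median-of-ratios scalings and at -0.75 under quantile normalization. On the recovered reads, edgeR called 3 members higher and 40 lower (65.6% of all genes called) and DESeq2 4 and 40 (57.7%). Of the 43 calls, 31 held under every alternative in which the gene was tested and 12 were lost under at least 1. The 12 were MYH9, MYL12A, TPM2, TPM3, TPM4, ACTR3, ARPC1B, ARPC3, VASP, CORO1A, LCP1 and MSN. Other members were called lower only under alternatives. For CAPZB, CORO1C and SPTAN1 these were TMM, median-of-ratios and quantile scaling, edgeR and DESeq2. For ACTR2 they were TMM and quantile scaling, edgeR and DESeq2, and for EVL quantile normalization alone. CAPZB and CORO1C also passed without THP-1 LDL 1, and CORO1C and ACTR2 without THP-1 LDL 2. Among the 31, MYH10 and CNN3 were too low to be tested at a mean of at least 50. The 6 markers of dividing cells moved in the same libraries, summing to 8381 to 8589 normalised counts in THP-1 control and 2061 to 2129 in THP-1 LDL. MKI67, for example, counted 2158, 2098 and 2077 in control and 406, 424 and 383 with LDL. MALAT1, a nuclear long non-coding RNA, moved in the same libraries too, from 1.57 to 1.73% of the deposited total in THP-1 control to 3.15 to 3.35% in THP-1 LDL. The part of either in the changes of the actin genes was not tested.

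**Figure D3:**
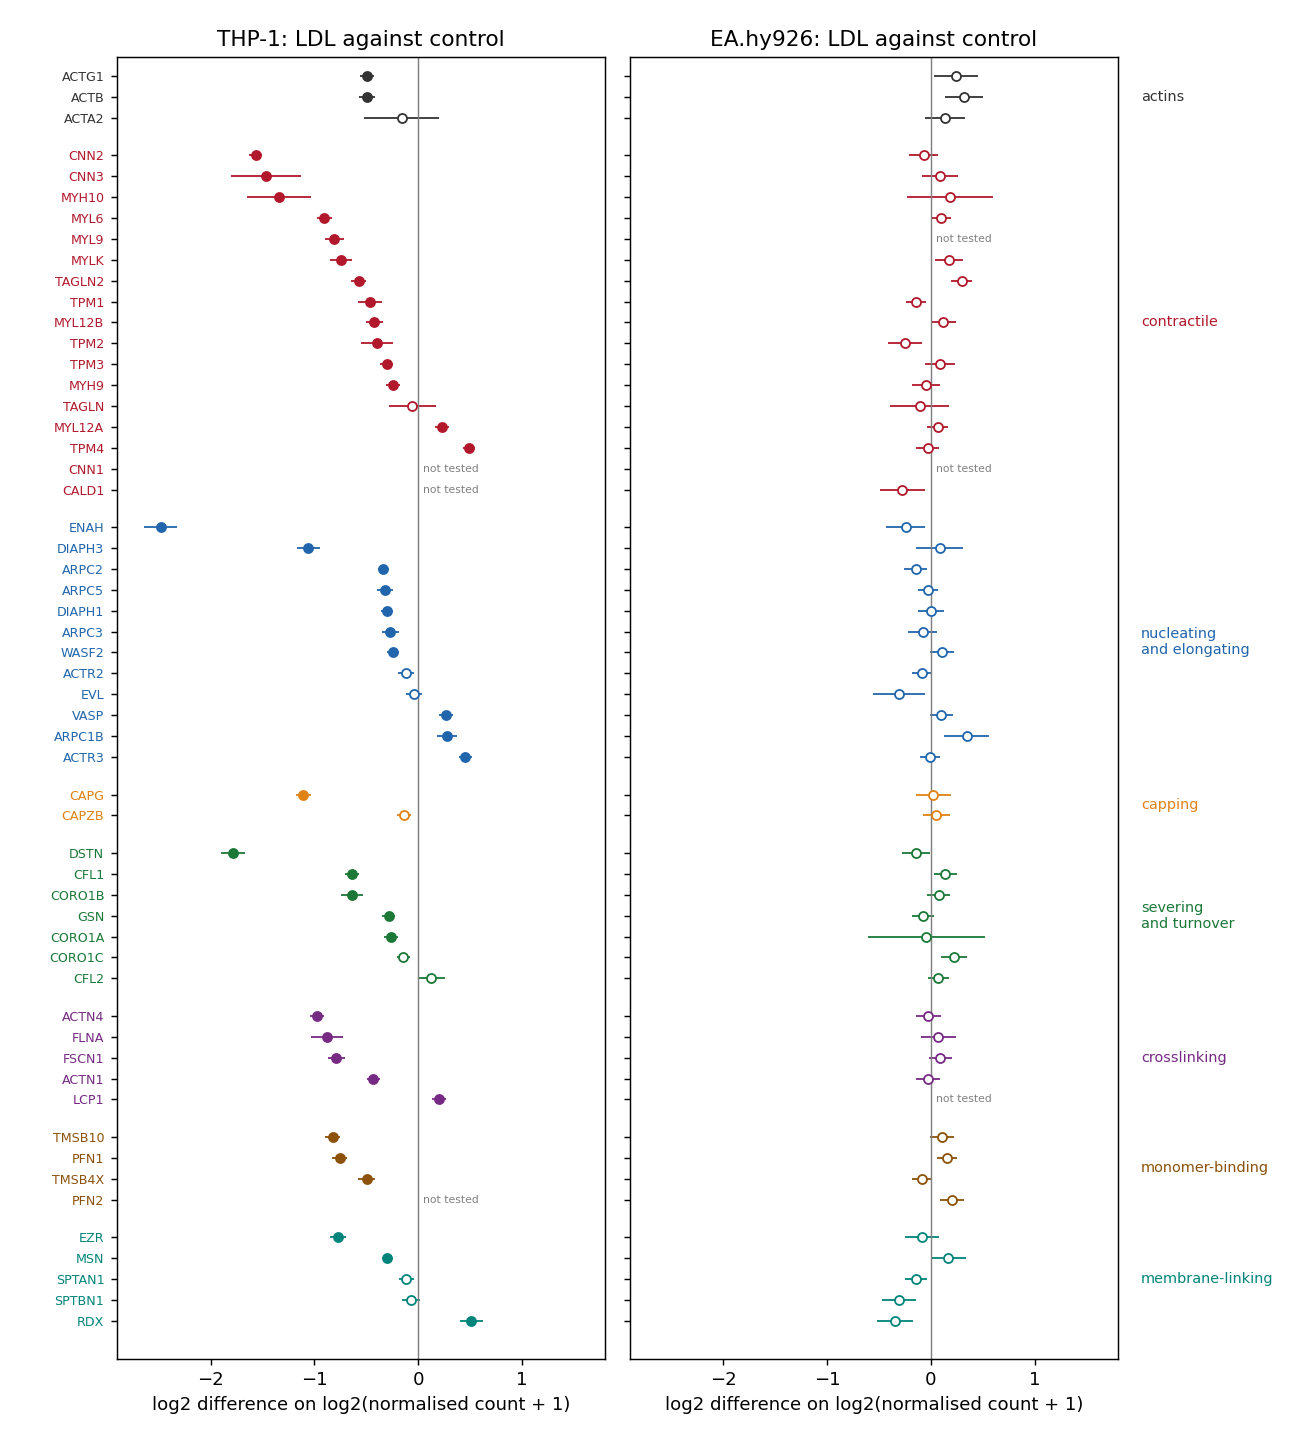
Points give the log2 difference (LDL minus control, on log2(normalised count + 1)) of each member, grouped by class and ordered by the THP-1 value, with bars of 1 SE; filled points passed an adjusted p of 0.05 in limma. In THP-1 (left) 36 filled points lie below 0 and 7 above, and in EA.hy926 (right) none is filled.

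Both cytoplasmic actins fell in THP-1. ACTB (chromosome 7, 5527147 to 5563784, minus strand, GRCh38, GENCODE 29) counted 66889.6, 73075 and 73816 in the control libraries and 51314, 49662 and 50666 with LDL. ACTG1 (chromosome 17, 81509971 to 81523847, minus strand) counted 26426, 27815 and 27509 in control and 20369, 19389 and 18235 with LDL. In both, every LDL library lay below every control library. The changes were -0.49 ± 0.078 (SE) for ACTB (adjusted p = 0.00011) and -0.50 ± 0.069 (SE) for ACTG1 (adjusted p = 3.6e-05), or 1.41-fold lower for each by limma. ACTA2 was low and spread, at 11.3, 9.15 and 11.3 in control and 10.4, 13.1 and 5.83 with LDL, and did not pass (limma adjusted p = 0.716).

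Among the 15 contractile genes tested, 12 fell and 2 rose. CNN2 (calponin 2, the calponin of non-muscle cells; chromosome 19, 1026581 to 1039068, plus strand), whose promoter box is shown above, counted 1812, 1909 and 1939.7 in control and 654, 603 and 653 with LDL, 2.96-fold lower (-1.57 ± 0.065 (SE), limma adjusted p = 3.3e-10). MYL6, the essential light chain of non-muscle myosin II, counted 3710.1, 3593 and 3389.7 in control and 2099.6, 1821 and 1807 with LDL (-0.90 ± 0.071 (SE), limma adjusted p = 1.7e-07). Neither gene's groups overlapped. MYL9, a regulatory light chain, fell by 0.81 on the log2 scale. MYLK, the gene of the kinase that activates the regulatory light chains, fell by 0.75. The MYLK box shown above lies before an inner start, while the counts are those of the whole gene.

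The myosin heavy chains among the members fell unequally. MYH10 (myosin IIB) went from 42 ± 7.81 to 16.9 ± 8.15 normalised counts (SD, n = 3), a change of -1.34 ± 0.309 (SE). MYH9 (myosin IIA) had a change of -0.25 ± 0.068 (SE). MYH11, a smooth muscle marker outside the members, rose from 10.5, 5.23 and 2.82 in control to 19.7, 31.5 and 42.3 with LDL (limma adjusted p = 0.00046), at low counts. The MYH9 call did not hold when all 12 libraries were fitted together (adjusted p = 0.0704). CNN3, at 28.7, 18.9 and 18.8 in control and 6.94, 5.26 and 10.2 with LDL, fell by 1.47 but from 33, 29 and 20 reads in the control libraries. TAGLN2 (transgelin 2), TPM1, MYL12B and TPM3 fell by 0.57, 0.47, 0.42 and 0.30, the last not held in the fit of all 12 libraries (adjusted p = 0.0595). TPM2 fell by 0.40, a call lost without THP-1 control 1, 2 or 3 or THP-1 LDL 2, and -0.19 without the last. The TPM2 call was also lost without the intensity trend and in the fit of all 12 libraries (limma adjusted p 0.0556 to 0.115).

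The tropomyosin TPM4 (chromosome 19, 16067021 to 16103005, plus strand) rose while its 3 relatives fell. It counted 3195, 3253 and 3226 in control and 4466, 4399 and 4689 with LDL. No libraries overlapped, and the change was 0.49 ± 0.057 (SE) (limma adjusted p = 7.4e-06) with the deposited scaling but 0.01 (adjusted p = 0.882) under quantile normalization. MYL12A rose by 0.23 ± 0.067 (SE) but was lower, not past the threshold, under quantile normalization (-0.11, adjusted p = 0.138). Its call was also lost with TMM, with median-of-ratios, without the intensity trend, and by edgeR and DESeq2 on the recovered reads, with adjusted p from 0.0559. TAGLN (transgelin, SM22) stood at 39.2, 34 and 29.1 in control and 35.8, 26.3 and 36.5 with LDL, overlapping. Of the 5 members with a CArG box in the window, ACTG1, CNN2, FLNA and MYLK fell and TPM4 rose. The MYLK window is that of an inner start. Among all 48 members with a window, 32 fell and 6 rose.

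Of the 12 nucleating and elongating genes, 7 fell and 3 rose. ENAH (Mena, an Ena/VASP protein; chromosome 1, 225486835 to 225653142, minus strand) had the largest fall of any member tested. Its libraries counted 279, 309 and 273 in control and 53.2, 61.8 and 39.4 with LDL, which is 5.57-fold lower (-2.48 ± 0.16 (SE), limma adjusted p = 2.5e-08). Its relatives EVL and VASP were not called lower with the deposited scaling. EVL counted 1179, 1208 and 1247 in control and 1217, 1043 and 1289 with LDL, overlapping, and VASP rose by 0.27 ± 0.07 (SE) with the deposited scaling but stood at -0.08 (adjusted p = 0.323) under quantile normalization. The VASP call was also lost with TMM and by edgeR on the recovered reads, with adjusted p from 0.0533. DIAPH3, a formin, counted 411, 395 and 348 in control and 172, 212 and 171 with LDL (-1.06 ± 0.109 (SE), limma adjusted p = 2.4e-06), while the formin DIAPH1 fell by 0.30.

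The subunits of the Arp2/3 complex moved apart. ACTR3 (chromosome 2, 113889960 to 113962596, plus strand), one of its actin-related subunits, counted 4524, 4694 and 4520.2 in control and 5916, 6708 and 6179 with LDL. The groups did not overlap, and the change was 0.45 ± 0.063 (SE) (limma adjusted p = 3.8e-05) with the deposited scaling but -0.12 (adjusted p = 0.0657) under quantile normalization. ACTR2, the other actin-related subunit, counted 6160.0, 6175 and 6011 in control and 5404, 6378 and 5135 with LDL. It did not pass with the deposited scaling but was called lower with TMM and quantile scaling and by edgeR and DESeq2. ARPC2, ARPC5 and ARPC3 fell by 0.34, 0.32 and 0.27, and ARPC1B rose by 0.28 ± 0.097 (SE). The ARPC3 call was lost without THP-1 control 2 or THP-1 LDL 3 and without the intensity trend (limma adjusted p = 0.0545 for the last). That of ARPC1B was lost without THP-1 control 1, control 2 or LDL 3 and in 6 other settings (adjusted p 0.0519 to 0.235). WASF2 (WAVE2, which switches the complex on) fell by 0.24.

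**Figure D4:**
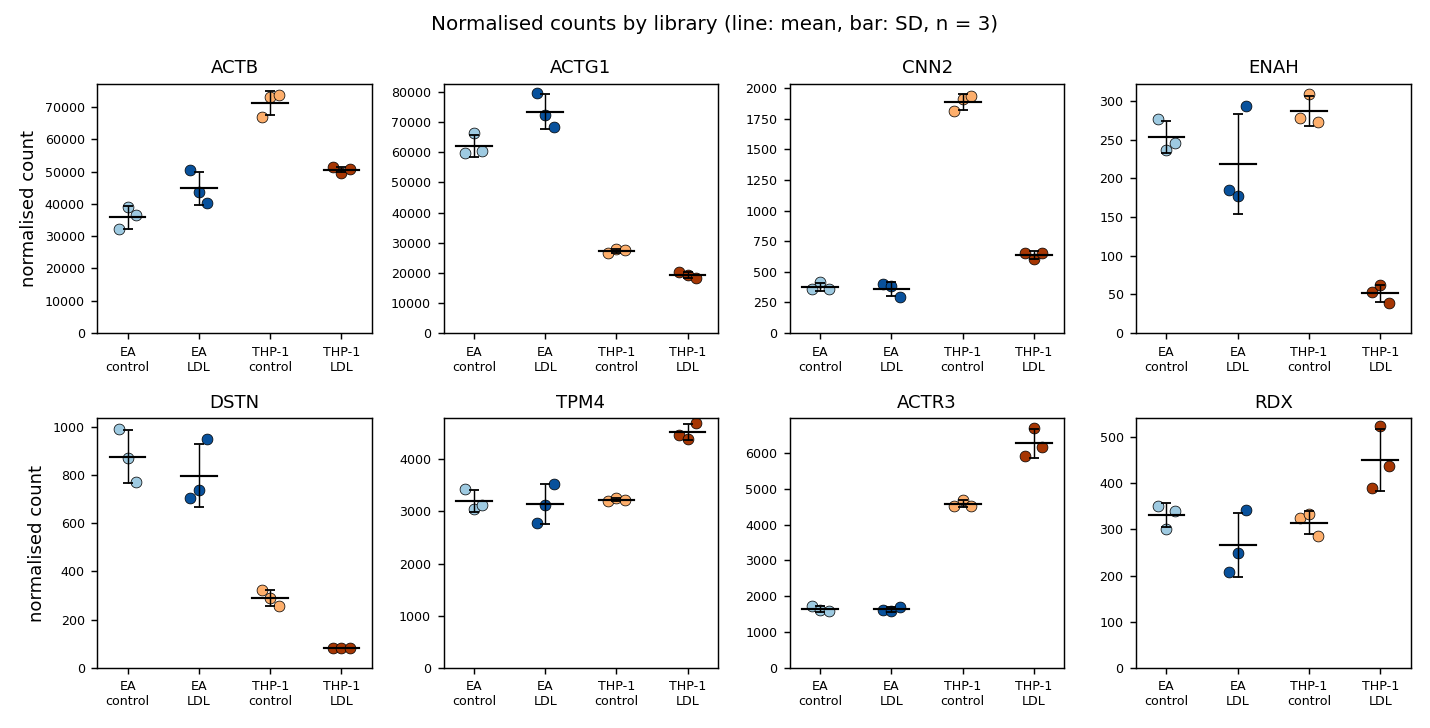
Each panel shows one gene's normalised counts in the 12 libraries (points), with the group mean (line) and SD (bar, n = 3), on a linear axis from 0. In THP-1, ACTB, ACTG1, CNN2, ENAH and DSTN are lower in every LDL library than in every control library and TPM4, ACTR3 and RDX higher; in EA.hy926, of these genes, the groups separate for ACTB and ACTG1, in the opposite direction and without passing the test.

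Capping and severing genes fell or did not pass, and none rose. CAPG (a gelsolin-like capping protein of macrophages) counted 1476, 1512 and 1502 in control and 776, 668 and 647 with LDL, 2.15-fold lower (-1.11 ± 0.075 (SE), limma adjusted p = 4.2e-08). CAPZB, the beta subunit of the general capping protein, stood at 2639, 2538 and 2525 in control and 2473, 2160.2 and 2378 with LDL. Its groups did not overlap, but the test was not passed with the deposited scaling (limma adjusted p = 0.0804). It was called lower under each other scaling and by edgeR and DESeq2.

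DSTN (destrin, a cofilin relative that depolymerises filaments; chromosome 20, 17569863 to 17609919, plus strand) counted 322, 290.1 and 256 in control and 83.2, 84.1 and 81.7 with LDL. Every LDL library was far below every control library, a 3.44-fold drop (-1.78 ± 0.117 (SE), limma adjusted p = 3e-08). CFL1 (cofilin 1, the main non-muscle cofilin) counted 5672, 5563 and 5452 in control and 3902, 3391 and 3435 with LDL (-0.64 ± 0.066 (SE), limma adjusted p = 2.4e-06). CFL2 counted 160.3, 167 and 155 in control and 148, 204 and 179 with LDL and did not pass. GSN (gelsolin), at 12459.9 ± 390.4 normalised counts in THP-1 control (SD, n = 3), fell by 0.29. The coronins CORO1B and CORO1A fell by 0.64 and 0.26, the second not held in the fit of all 12 libraries (limma adjusted p = 0.655). CORO1C did not pass with the deposited scaling (-0.14 ± 0.064 (SE), limma adjusted p = 0.0649). It was called lower under each other scaling and by edgeR and DESeq2.

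Of the 5 crosslinkers, 4 fell. ACTN4 (alpha-actinin 4) counted 2028, 2084 and 2079.7 in control and 1123, 954 and 1083 with LDL (-0.97 ± 0.07 (SE), limma adjusted p = 7.3e-08). FSCN1 (fascin, which bundles filaments in filopodia) counted 2762, 3144 and 3201 in control and 1901, 1585 and 1789 with LDL (-0.79 ± 0.08 (SE), limma adjusted p = 2e-06). In both genes the groups stood apart. FLNA fell by 0.88 from a low level, 201, 217 and 223 to 153, 99.9 and 101, and ACTN1 by 0.43. LCP1 rose by 0.20 ± 0.068 (SE) with the deposited scaling and fell under quantile normalization (-0.49, adjusted p = 1e-05); its call was also lost with TMM, with median-of-ratios, by edgeR and DESeq2, without the trend, in the fit of all 12 libraries and without THP-1 control 2, control 3 or LDL 1, so its direction depended on the scaling and its call on single libraries.

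The 3 monomer-binding genes tested all fell. TMSB10 counted 1583, 1475 and 1455 in control and 867, 781 and 905 with LDL (-0.82 ± 0.072 (SE), limma adjusted p = 5e-07). PFN1 (profilin 1, which feeds monomers to formins and Ena/VASP proteins) counted 2219, 2265 and 2197 in control and 1441, 1208 and 1311 with LDL (-0.76 ± 0.07 (SE), limma adjusted p = 8.5e-07). Neither gene's groups overlapped. TMSB4X (thymosin beta 4, the main monomer-sequestering peptide) fell by 0.50.

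The membrane linkers of the ERM family, which tie filaments to the plasma membrane, went separate ways. EZR (ezrin) counted 902, 934 and 868 in control and 576, 505 and 500.1 with LDL (-0.78 ± 0.076 (SE), limma adjusted p = 1.4e-06). MSN (moesin) counted 5236, 5478 and 5172 in control and 4269.7, 4382 and 4272 with LDL (-0.30 ± 0.057 (SE), limma adjusted p = 0.0005; 0.0982 in the fit of all 12 libraries). RDX (radixin; chromosome 11, 109864295 to 110296722, minus strand) counted 324, 334 and 286 in control and 389.6, 524 and 437 with LDL. Every LDL library was above every control library for RDX and below for the other two, and the RDX change was 0.51 ± 0.11 (SE) (limma adjusted p = 0.00127), 0.44 under quantile normalization. The spectrins SPTAN1 and SPTBN1, which form the membrane skeleton, stood at 1921 ± 75.8 and 579 ± 33.2 normalised counts in control (SD, n = 3) and at 1776 ± 131 and 553 ± 53.8 with LDL. Neither passed with the deposited scaling. SPTAN1 was called lower under each other scaling and by edgeR and DESeq2, and SPTBN1 under none of these.

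Ratios between relatives in the same library do not depend on a single scaling factor per library, apart from the pseudocount of 1. For 17 pairs within families or complexes, chosen after their values had been seen, the log2 ratio is given as a description, with no test. The ratio of ACTB to ACTG1 was 1.34, 1.39 and 1.42 in THP-1 control and 1.33, 1.36 and 1.47 with LDL, overlapping, with a mean shift of 0.00. VASP to ENAH went from 3.10 ± 0.07 to 5.85 ± 0.41, the largest shift (SD, n = 3). CFL2 to DSTN went from -0.84 ± 0.15 to 1.07 ± 0.23, and RDX to EZR from -1.52 ± 0.07 to -0.23 ± 0.31.

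Within the contractile set, the log2 ratio of TPM4 to TPM3 was 0.03, 0.00 and 0.10 in THP-1 control and 0.81, 0.87 and 0.81 with LDL. MYL12A to MYL12B went from 1.23 ± 0.06 to 1.88 ± 0.03. In the Arp2/3 complex, ACTR3 to ACTR2 went from -0.45, -0.40 and -0.41 to 0.13, 0.07 and 0.27, with no overlap. ACTR3 to ARPC2 went from 0.23 ± 0.04 to 1.02 ± 0.11. The alpha-actinin ratio ACTN1 to ACTN4 was 0.78, 0.78 and 0.79 in control and 1.28, 1.36 and 1.34 with LDL. Besides the actins, the pairs that overlapped were CORO1C to CORO1A and SPTBN1 to SPTAN1, with mean shifts of 0.12 and 0.05. In EA.hy926, the groups did not overlap for ACTR3 to ARPC2 (0.14), TMSB4X to TMSB10 (-0.19) and RDX to MSN (-0.51). That is 3 of the 17 pairs, against 14 in THP-1. Of single genes tested, 16.4% in EA.hy926 and 68.9% in THP-1 did not overlap. No share over other gene pairs was taken.

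**Figure D5:**
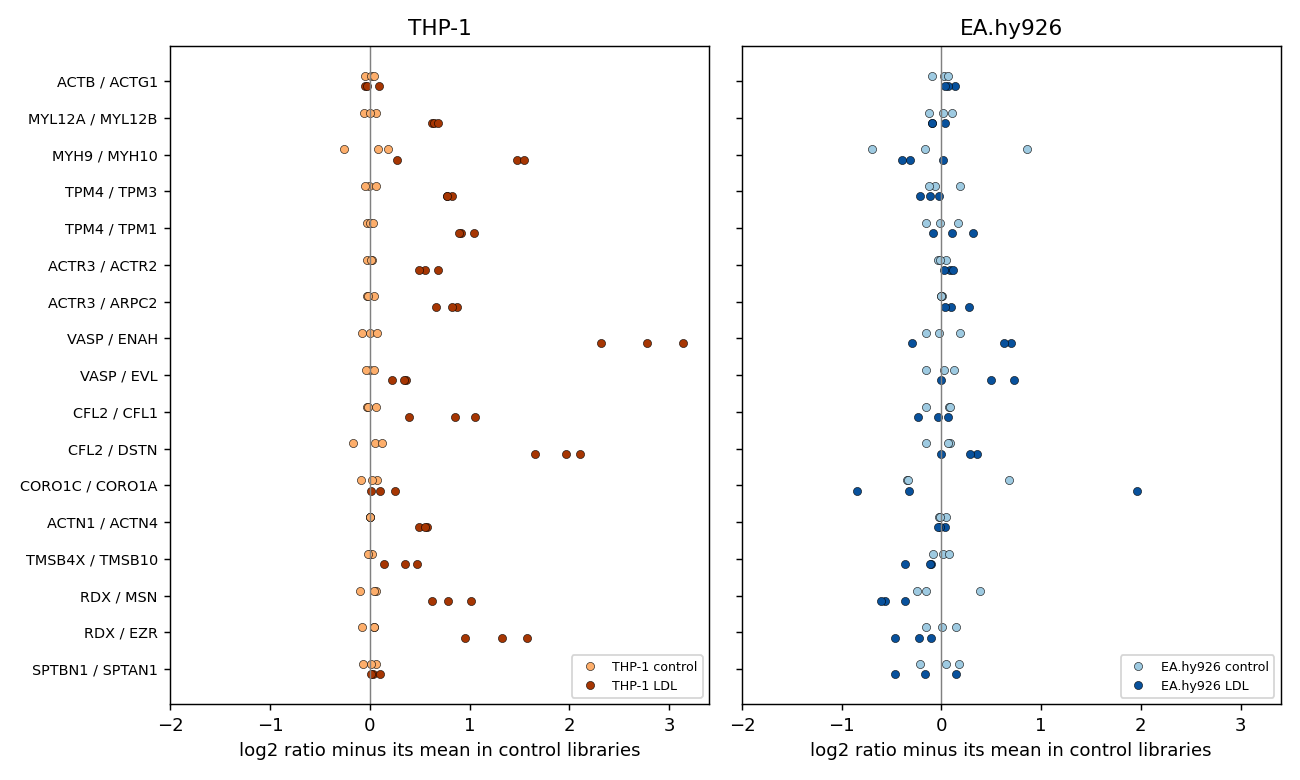
Points give the log2 ratio of 17 gene pairs in each library, as the difference from the mean of that line's control libraries, for THP-1 (left) and EA.hy926 (right); pale points are control libraries and dark points LDL libraries. In THP-1 VASP to ENAH moved furthest of these pairs, by 2.74, and in THP-1 the dark and pale points of ACTB to ACTG1 overlap. The pairs were chosen after their values had been seen.

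In EA.hy926 cells no member passed the test. Of 52 tested, 0 were called by limma, where 2.01% of the 14202 genes tested were called (0.873% higher, 1.13% lower). On the recovered reads, edgeR and DESeq2 also called 0 members, against 2.07% and 2.37% of all genes. At an unadjusted p under 0.05, limma gave 1 member (11.1% of all genes), edgeR 2 and DESeq2 3. The limma number was 8 without EA.hy926 LDL 3 and 5 without both libraries highest in RN7SL1, with 0 called in each. The share of all genes at an unadjusted p under 0.05 was taken for the main limma fit alone. The other numbers therefore cannot be set against it. The median change was 0.04 over the members and 0.00 over all genes tested, and member changes ran from -0.35 (RDX) to 0.34 (ARPC1B). LDL and control libraries did not overlap for 8 of the 52 members (15.4%), against 16.4% of all genes tested. They were ACTB, ACTG1, MYLK, TAGLN2 and PFN1, higher in every LDL library, and TPM1, TPM2 and TMSB4X, lower.

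ACTB counted 32076, 38942 and 36412 in EA.hy926 control and 50362, 43613 and 40364 with LDL. ACTG1 counted 59636, 66449 and 60434 in control and 79759, 72413 and 68563 with LDL. The groups did not overlap but lay close in both genes, and the differences were 0.32 ± 0.183 (SE) (limma adjusted p = 0.555) and 0.24 ± 0.212 (SE) (limma adjusted p = 0.713). ACTA2 counted 172, 192 and 121 in control and 180.1, 149 and 198 with LDL, overlapping. The smallest unadjusted p was that of TAGLN2, at 1507, 1486 and 1386 in control and 2009, 1715 and 1667 with LDL, with a difference of 0.30 ± 0.103 (SE) and a limma adjusted p of 0.293. FLNA stood at 28777, 27816 and 25429 in control and 23816, 30267 and 32827 with LDL and overlapped. The libraries with the highest RN7SL1 share in their groups were EA.hy926 control 1 (12.7%) and LDL 3 (14.4%); without both, an alternative chosen after the data were seen, 0 members were called. Leaving out any single EA.hy926 library also gave 0. The dividing-cell markers summed to 1892 to 1990.3 normalised counts in EA.hy926 control and 2074 to 2277 with LDL.

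The difference of the LDL response between the lines (THP-1 minus EA.hy926) was tested as an interaction over all 12 libraries, which are the same libraries as in the single-line tests. Of the 50 members tested in both lines, 24 had a lower response in THP-1 and 3 a higher one, where limma called 47.1% of 12534 genes (25.2% higher, 21.9% lower). The median was -0.38 over the members and 0.05 over all genes tested. All 4 crosslinkers tested and all 3 monomer-binding genes tested were among the 24, as were 3 of 12 nucleating and elongating genes (ENAH, DIAPH3 and WASF2). On the recovered reads, edgeR called 3 members higher and 29 lower (48.2% of all genes) and DESeq2 3 and 28 (46.6%). Of the 27 calls, 22 held under every alternative in which the gene was tested, CNN3 being too low in THP-1 for a mean of at least 50. The exceptions were MYH10, TPM4, ACTR3, WASF2 and ACTN1.

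ENAH counted 276, 237 and 246 in EA.hy926 control and 185, 178 and 293 with LDL, overlapping, and its response differed between the lines by -2.23 ± 0.264 (SE) (limma adjusted p = 1.7e-06). DSTN counted 991, 871 and 771 in control and 707, 737 and 948 with LDL in EA.hy926, with a difference of responses of -1.64 ± 0.181 (SE) (limma adjusted p = 7.6e-07). CNN2 counted 361, 413 and 359 in control and 404, 388 and 296 with LDL there, with a difference of -1.50 ± 0.156 (SE) (limma adjusted p = 3.7e-07). In all 3 genes the EA.hy926 groups overlapped while the THP-1 groups stood far apart.

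RDX counted 351, 302 and 339.7 in EA.hy926 control and 207, 248 and 342 with LDL, and its response differed by 0.85 ± 0.219 (SE) (limma adjusted p = 0.0037), the largest positive difference. TPM4 counted 3439, 3048 and 3119 in control and 2774, 3132 and 3527 with LDL, with a difference of 0.52 ± 0.127 (SE) (limma adjusted p = 0.00276; 0.271 under quantile normalization). ACTR3 counted 1732, 1606 and 1599 in control and 1625, 1576 and 1696 with LDL, with a difference of 0.46 ± 0.111 (SE) (limma adjusted p = 0.0023) that was -0.01 (adjusted p = 0.925) under quantile normalization. The actins differed by -0.82 ± 0.187 (SE) (ACTB) and -0.74 ± 0.167 (SE) (ACTG1), with limma adjusted p of 0.00158 and 0.00143, and ACTA2 by -0.30 ± 0.384 (SE) (adjusted p = 0.552). Calls for MYH10, WASF2 and ACTN1 were lost when any 1 of 6, 9 and 4 libraries was left out, with adjusted p of up to 0.0913, 0.115 and 0.0559. For MYH10 these were EA.hy926 control 2 and LDL 2 and THP-1 control 2 and 3 and LDL 1 and 3, and for ACTN1 EA.hy926 control 3, LDL 2 and LDL 3 and THP-1 LDL 2. For WASF2 they were EA.hy926 control 3, LDL 2 and LDL 3 and any THP-1 library. The replicate block and the fit without the intensity trend also ended the WASF2 and ACTN1 calls, with adjusted p from 0.0884 to 0.102 and from 0.0581 to 0.0707, and DESeq2 on the recovered reads ended that of MYH10 (adjusted p = 0.0528).

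Further lists of actin-related genes were read beside the members, at the deposited scaling alone. Over all genes tested, limma called 64.5% in THP-1 (35.5% higher, 29% lower) and 2.01% in EA.hy926. Among other subunits and partners of the same machinery, 18 rose and 16 fell of 48 tested in THP-1 (median 0.01), and none of 41 passed in EA.hy926 by limma. The smallest adjusted p in THP-1 belonged to MARCKS, a membrane protein that binds and crosslinks filaments, at 165, 178 and 202 in control and 3586, 4143 and 3858 with LDL (4.41 ± 0.086 (SE)). FMNL3, a formin, went from 1022, 979 and 1012 to 3552, 3042 and 3463 (1.73 ± 0.069 (SE)). SCIN (scinderin, a gelsolin relative) went from 259, 242 and 262 to 28.9, 25 and 30.6 (-3.14 ± 0.144 (SE)). The groups of all 3 stood apart, with limma adjusted p of 2.5e-13, 2.2e-10 and 8.7e-10.

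Of the 10 SRF and MRTF factors and partners tested in THP-1, SRF and ELK4 were called higher and ELK3, FHL2, SCAI and PHACTR3 lower (median -0.07). None of 9 passed in EA.hy926 by limma. The share called over all genes tested was 64.5% in THP-1 and 2.01% in EA.hy926. SRF itself counted 918, 1042 and 1082 in THP-1 control and 1179, 1234 and 1168 with LDL (0.24 ± 0.073 (SE), limma adjusted p = 0.0119). Its groups were apart but close. PHACTR3, an actin-binding regulator of protein phosphatase 1, went from 238, 244 and 236 to 1.16, 5.26 and 10.2 (limma adjusted p = 2.1e-07). ELK3, an SRF partner of the ETS family, went from 181, 189 and 147 to 72.8, 109 and 77.3 (limma adjusted p = 0.00017), and the LIM protein FHL2 from 112, 100 and 99.6 to 38.2, 63.1 and 65.6 (-0.93 ± 0.202 (SE)). MRTFA (-0.03 ± 0.092 (SE)) and MRTFB (-0.12 ± 0.079 (SE)) did not pass in THP-1 (limma adjusted p = 0.8 and 0.197).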

How the data were processed

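RNA-seq of 12 libraries in 4 groups of 3 was used, and every library entered. Per the submitters' processing notes, the tools were FastQC, MultiQC, STAR, HTSeq and DESeq2 on the build GRCh38; of versions, annotation release, strand setting and filters, nothing is given in the sources used here. Values in the deposited table are a signal, read counts that the authors divided by size factors. All (100.0%) were whole multiples of one read's value within a tolerance of 0.001, so reads were recovered, and one read was worth 0.653 to 1.91 normalised counts. A group at 0 throughout is called listed at 0, with no fold. Symbols came from a list of gene names that matched 20104 genes, and coordinates and exon lengths from GENCODE 29.

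Members, classes and further lists were chosen with earlier results of these data known. limma 3.58.1 (R 4.3.3) with an intensity trend was fitted on log2(value + 1) for genes whose mean reached 10 in a compared group, each line alone for LDL and all 12 libraries for the interaction (in a group of each line) and the lines, two-sided, with Benjamini-Hochberg adjustment over all genes tested and a threshold of 0.05. Fold changes on this scale understate low genes, and p-values measure the spread between libraries labelled biological replicates, which may be technical; 3 against 3 allow an exact p of 0.1 at best. Values per library are given for the 3 actins, for up to 2 members per class with the smallest adjusted p and a mean of at least 50, for the largest differences between responses (3 each way) and control lines (4 each way), and for other genes where a sentence turns on them, chosen after their values were seen. The scripts were tested on simulated data. Alternatives were TMM, median-of-ratios and quantile scaling, edgeR 4.0.16 and DESeq2 1.42.0 on recovered reads, pseudocounts, filters, no trend, a replicate block, other sample sets and leaving out each library. A further list of related genes is not reported here.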

Additional observations from a re-analysis of the deposited data

Results flagged for a closer look

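The 6 members below were picked for the size of the difference between the LDL response of THP-1 and that of EA.hy926, which was itself tested as the interaction in limma with adjusted p over all genes. ENAH differed by -2.23, with THP-1 falling by 2.48 and EA.hy926 at -0.24. DSTN differed by -1.64, from responses of -1.78 (THP-1) and -0.14 (EA.hy926), and CNN2 by -1.50, with -1.57 and -0.07. RDX differed by 0.85, with responses of opposite sign, 0.51 and -0.35, of which the second did not pass its own test (limma adjusted p = 0.487). TPM4 differed by 0.52 and ACTR3 by 0.46 with the deposited scaling; neither held under quantile normalization, where ACTR3 changed sign (-0.01).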

How the results depend on the processing

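Limits: one read is worth up to 1.91 normalised counts, so members near 10 (ACTA2 and CNN3 in THP-1, MYH10, LCP1 and CORO1A in EA.hy926) are imprecise. Members called higher in THP-1 LDL numbered 7, against 3 with TMM, 4 with median-of-ratios, 2 with quantile normalization, 3 with edgeR, 4 with DESeq2 and 4 without the trend; members called lower numbered 36 and 31 to 42 across those and the other settings. Quantile normalization reversed MYL12A (-0.11), ACTR3 (-0.12), VASP (-0.08) and LCP1 (-0.49), gave 1 member higher in the interaction in place of 3, and put ACTR3 at -0.014 there; the cause was not tested. Genes called higher in EA.hy926 numbered 124, against 38 at a mean of at least 50, 41 without genes listed at 0 in a group, 217 in the fit of all 12 libraries and 192 without both libraries highest in RN7SL1. Genes called lower numbered 161, against 310 with no filter, 7 at a mean of at least 50, 7 without genes listed at 0 and 256 in the fit of all 12 libraries. Genes called higher in the THP-1 control numbered 7640, and 5068 without genes listed at 0, which tests fewer genes. Leaving out each library gave, in THP-1, 5098 to 5786 genes and 5 to 7 members higher and 4080 to 4713 genes and 34 to 38 members lower; in EA.hy926, 84 to 164 genes higher, 148 to 173 lower and 0 members; in the interaction, 2783 to 3213 and 2424 to 2779 genes and 3 to 4 and 21 to 29 members; between the lines, 7349 to 7588 and 5990 to 6205 genes and 32 and 14 members. Sign changes of values past the threshold in neither setting were not counted. Same-numbered libraries correlated at -0.326, 0.0127 and -0.295 in EA.hy926 and -0.0971, -0.0888 and 0.0356 in THP-1. Differently numbered ones ran from -0.129 to 0.382 (control 1 with LDL 3) in EA.hy926 and from -0.0328 to 0.116 in THP-1. With 3 libraries a group, these values cannot tell whether the numbers mark pairs. A replicate block left 7 and 36 members in THP-1, 84 and 147 genes and 0 members in EA.hy926, 3 and 22 members in the interaction and 32 and 14 between the lines.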

Other observations

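Several relatives of the 55 genes had large changes in THP-1 LDL; they come from the list of other subunits and partners and were chosen after their values were seen. ARPC1A, the other form of the Arp2/3 subunit encoded by ARPC1B, counted 94.9, 98.7 and 81.8 in control and 35.8, 47.3 and 29.2 with LDL (-1.29 ± 0.2 (SE), limma adjusted p = 8.8e-05). CTTN (cortactin, which stabilises branched filaments) counted 49.6, 52.9 and 69.5 in control and 271, 223 and 343 with LDL (2.26 ± 0.173 (SE), limma adjusted p = 1.3e-07), and in EA.hy926 control 2038, 2319 and 2538. ACTN2, the alpha-actinin of muscle, was at 1.74, 0.653 and 1.88 in THP-1 control, 1 or 2 reads a library, and at 69.4, 60.4 and 80.2 with LDL, and was listed at 0 in EA.hy926. MYH14 (myosin IIC) counted 61, 53.6 and 45.1 in control and 9.25, 13.1 and 8.75 with LDL in THP-1, and ADD3 (adducin 3, a membrane skeleton protein) 135, 121 and 139 in control and 33.5, 46 and 35 with LDL. No groups overlapped among these THP-1 values, as was so for 68.9% of all genes tested in THP-1.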
